A study of Mus musculus with 3 samples.

Results

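The subject is chromosome 15 of C2C12 cells, seen through the promoter probes of a mouse ChIP-on-chip array. All probes that the array design places on chromosome 15 were taken, 9509 of 237203, and they were chosen by measured values, because their input DNA signal was above that of probes of like GC content on the other autosomes. Levels and ratios of these probes are therefore given as a description, without a test of the chromosome. Of the 9509 probes, 9195 carried a gene name and 314 did not, and the named probes formed 623 promoters, of which 617 had at least 3 usable probes on every array and 6 did not. C2C12 is a mouse myoblast line. All cells had entered G0 while suspended in medium thickened with 2% methylcellulose, after which 1% formaldehyde was used for cross-linking and 0.125 M glycine to stop it. On 2 arrays the chromatin had been precipitated with an antibody to PRDM2 and on 1 array with an antibody to H3K9me2, with precipitated (IP) DNA in the red dye and input DNA in the green dye each time. No dyes were exchanged, an array of a control antibody or of cycling cells was not used here, and the labels describe no separate cultures. The p-values below therefore measure only the spread between these 2 PRDM2 arrays, in large part as shared over all promoters and not that of each promoter alone.

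Input DNA is the sheared chromatin before precipitation, and it is the reference that a ChIP ratio is divided by. Its signal at a probe follows the number of copies of the locus in the cells as well as how well that probe hybridises and how evenly the DNA was sheared and labelled. PRDM2, also known as RIZ, is a zinc finger protein with a PR domain of the histone H3 lysine 9 methyltransferase family, and H3K9me2, the dimethylated lysine, marks much of the silent chromatin. Mouse chromosome 15 carries Myc, the Hoxc cluster, the type II keratin genes, the Ly6 surface antigens and the myoglobin gene Mb. Established myoblast lines often depart from the normal chromosome number, which was not measured here by any other method.

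Promoters at which an array probe lies exactly within the 250 bases before a RefSeq start show what was read at single sites. RefSeq of GRCm38.p6 held 936 promoters on the chromosome, and 249 probes of 196 genes matched in this way. The 8 below were picked after their values were seen, to show sites of high input, muscle genes, a site in the gene-poor part and PRDM2-rich sites of high GC content. They are on the gene's strand, 5′ to 3′, with the probe or its complement in capitals.
Krt78, chr15:101954288-101954537, minus strand: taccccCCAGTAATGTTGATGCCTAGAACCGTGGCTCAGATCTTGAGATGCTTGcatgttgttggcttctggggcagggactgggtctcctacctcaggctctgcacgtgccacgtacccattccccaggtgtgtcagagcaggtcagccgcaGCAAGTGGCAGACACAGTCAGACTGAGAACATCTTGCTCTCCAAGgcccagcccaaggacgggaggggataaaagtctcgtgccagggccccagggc
Myg1, chr15:102331459-102331708, plus strand: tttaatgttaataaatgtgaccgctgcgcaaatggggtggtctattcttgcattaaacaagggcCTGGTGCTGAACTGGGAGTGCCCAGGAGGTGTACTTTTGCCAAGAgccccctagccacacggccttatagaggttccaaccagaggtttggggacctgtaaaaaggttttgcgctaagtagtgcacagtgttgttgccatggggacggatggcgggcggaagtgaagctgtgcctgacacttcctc
Aaas, chr15:102350760-102351009, minus strand: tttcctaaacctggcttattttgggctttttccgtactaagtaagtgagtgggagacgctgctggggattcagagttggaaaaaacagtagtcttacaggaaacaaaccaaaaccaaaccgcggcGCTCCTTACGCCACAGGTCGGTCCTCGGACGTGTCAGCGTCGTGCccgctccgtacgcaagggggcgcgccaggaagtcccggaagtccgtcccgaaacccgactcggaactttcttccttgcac
Pfkm, chr15:98111810-98112059, plus strand: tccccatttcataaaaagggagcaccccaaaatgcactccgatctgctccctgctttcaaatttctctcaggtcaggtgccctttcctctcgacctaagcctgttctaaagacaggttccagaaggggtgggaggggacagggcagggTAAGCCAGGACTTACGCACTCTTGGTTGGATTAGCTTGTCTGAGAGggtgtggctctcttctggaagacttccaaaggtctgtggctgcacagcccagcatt
Mb, chr15:77050669-77050918, minus strand: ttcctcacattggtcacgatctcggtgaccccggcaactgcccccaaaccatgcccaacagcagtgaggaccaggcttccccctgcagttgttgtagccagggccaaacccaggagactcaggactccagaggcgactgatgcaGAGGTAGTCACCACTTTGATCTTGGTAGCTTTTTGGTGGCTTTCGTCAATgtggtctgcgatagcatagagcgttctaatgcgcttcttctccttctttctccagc
Cdh12, chr15:21111202-21111451, plus strand: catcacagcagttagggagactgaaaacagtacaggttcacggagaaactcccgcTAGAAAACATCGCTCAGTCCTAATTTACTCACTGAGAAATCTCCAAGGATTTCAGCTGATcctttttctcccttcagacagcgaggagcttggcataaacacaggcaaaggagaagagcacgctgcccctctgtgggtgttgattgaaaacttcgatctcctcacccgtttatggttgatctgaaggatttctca
Pim3, chr15:88861944-88862193, plus strand: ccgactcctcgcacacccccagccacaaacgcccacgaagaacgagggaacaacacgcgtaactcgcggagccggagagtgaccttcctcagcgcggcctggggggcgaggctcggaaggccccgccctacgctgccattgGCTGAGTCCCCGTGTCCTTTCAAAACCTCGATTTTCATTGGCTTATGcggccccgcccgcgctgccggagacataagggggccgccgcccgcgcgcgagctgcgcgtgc
Nr4a1, chr15:101266596-101266845, plus strand: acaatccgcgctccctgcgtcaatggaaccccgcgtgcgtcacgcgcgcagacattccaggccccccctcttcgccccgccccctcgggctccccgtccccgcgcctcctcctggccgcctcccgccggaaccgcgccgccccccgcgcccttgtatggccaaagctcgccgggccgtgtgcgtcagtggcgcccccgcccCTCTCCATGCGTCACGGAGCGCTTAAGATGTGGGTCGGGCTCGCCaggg

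In these stretches the processed input signal is read first, as intensity, in the order PRDM2 array 1, PRDM2 array 2, H3K9me2 array. The outer Krt78 probe, which starts 244 bases before the start of this keratin gene, read 5908, 5020 and 5446. That was 2.03, 2.03 and 2.00 above probes of like GC content on the log2 scale, while its IP signal was 1566, 1378 and 1189. The probe at Pfkm, the muscle phosphofructokinase gene, read 2743, 1998 and 2500 in input, an excess of 0.93, 0.71 and 0.88. Its IP signal was only 539, 378 and 280, so that its IP over input ratio lay at -1.43, -1.60 and -2.89 on the log2 scale, each array centred on its median probe. At Mb, the myoglobin gene, input excess was 0.62, 1.11 and 0.79 and the ratio was -0.78, -1.57 and -2.94. Whether the RefSeq start shown for Mb is the one used in muscle was not tested. At Cdh12, a cadherin gene, the probe of 38.3% GC had an input excess of 1.11, 0.96 and 1.65 and ratios of -0.69, 0.14 and -1.01.
The other stretches differed among themselves. The 250 bases before Pim3, a serine and threonine kinase gene, held 31 CpG, and those before Nr4a1, an orphan nuclear receptor gene, held 34, against 3 at Pfkm and 6 at Krt78. The Pim3 probe had no input excess (-0.09, 0.02 and 0.09) and ratios of 4.33, 3.33 and 1.63. The Nr4a1 probe was dim in input, with an excess of -1.38, -1.64 and -1.52, and its ratios were 4.05, 3.55 and 2.24. At Aaas, a nuclear pore protein gene with 21 CpG in its stretch, the probe had input values of 0.17, -0.43 and -0.23, although the promoter as a whole was among the highest in input. The Myg1 probe, before an exonuclease gene, had an input excess of 1.21, 1.47 and 1.53 and ratios of 1.13, 2.79 and -0.76. Single probes of 1 chromosome thus spread over more than the chromosome's own shift, and the medians below are taken over many.

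Input excess is here the log2 processed signal of a probe minus the median of probes of the same GC class, 5 points wide, on the other autosomes. The median over chromosome 15 was 0.63, 0.58 and 0.60 on PRDM2 array 1, PRDM2 array 2 and the H3K9me2 array, a mean of 0.60 ± 0.02 (SD, n = 3 arrays), or 1.52-fold. In processed intensity the median chromosome 15 probe read 1712, 1405 and 1330 in input. The median probe of 40 to 45% GC on the other autosomes read 1211, 1041 and 942. That class holds the chromosome's median probe GC content of 43.1%. These intensities are not matched class by class, so they do not give the 1.52-fold. The other 18 autosomes lay between -0.07 and 0.09 on PRDM2 array 1, between -0.07 and 0.08 on PRDM2 array 2 and between -0.18 and 0.15 on the H3K9me2 array. Chromosome 11 was the highest of them on every array and chromosome 15 did not overlap with any. Chromosome X lay on the other side, at -0.88, -0.83 and -0.89, or 0.543, 0.563 and 0.539 of the level of autosomal probes of like GC content. The excess of chromosome 15 was present in each of 4 equal areas of the slides, from 0.56 to 0.66 over areas and arrays. The PRDM2 arrays were scanned on different days and the H3K9me2 array on the day of PRDM2 array 2, and each was on a slide of its own.

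**Figure D1:**
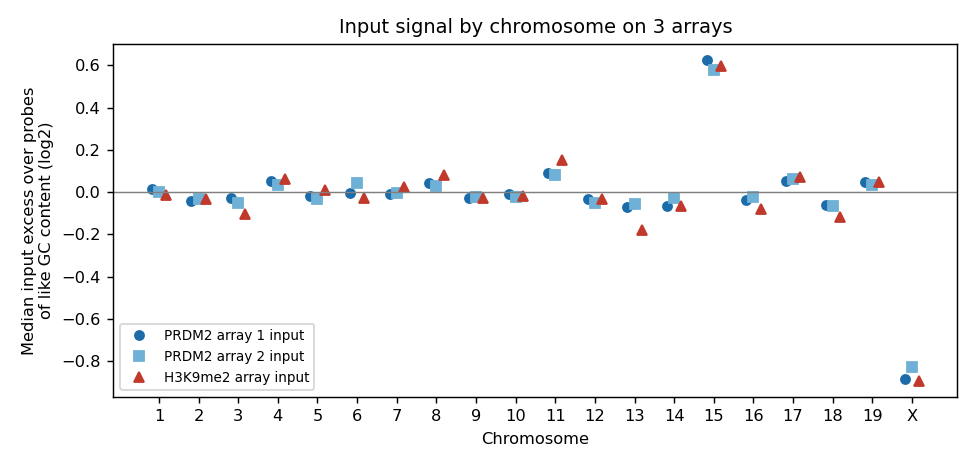
Median input excess over probes of like GC content (log2, vertical axis) for each chromosome (horizontal axis), 1 point per array. Chromosome 15 lies between 0.58 and 0.63, the other autosomes between -0.18 and 0.15 and chromosome X between -0.89 and -0.83.

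The shift was one of the whole distribution with a wide spread between probes. The quartiles of input excess over chromosome 15 probes were 0.04 and 1.18 on PRDM2 array 1, -0.04 and 1.17 on PRDM2 array 2, and -0.14 and 1.29 on the H3K9me2 array. The share of probes above 0 was 76.2%, 73.5% and 70.9%, and 64.2% were above 0 on all 3 arrays, against 39.1% of probes on the other autosomes. In input, 99.5%, 99.8% and 97.5% of the chromosome 15 probes were well above background, so dim spots were few in that channel. No chromosome 15 probe was saturated.

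In processed signals, taken as the median difference from like GC content, the IP channel of chromosome 15 was raised with PRDM2 and hardly with H3K9me2. IP excess was 0.48 and 0.41 on the PRDM2 arrays, a mean of 0.44 ± 0.06 (SD, n = 2 arrays), beside -0.09 to 0.07 on the other autosomes on array 1 and -0.08 to 0.06 on array 2. On the H3K9me2 array IP excess was 0.08, inside the range of the other autosomes there (-0.13 to 0.12). Chromosome X showed the same order with the sign turned, at -0.65 and -0.53 with PRDM2 and -0.10 with H3K9me2. In processed intensity the median chromosome 15 probe read 768, 687 and 645 in IP. The median probe of 40 to 45% GC on the other autosomes read 522, 474 and 497. By this coarser measure, not matched class by class, chromosome 15 was higher with H3K9me2 as well. Of the chromosome 15 probes, 91.5%, 87.3% and 84.3% had an IP signal well above background, beside 76.0%, 71.3% and 78.9% of those on the other autosomes. These shares are not matched for GC content, whose median was 43.1% on chromosome 15 and 41.5% on the other autosomes. Over all probes the median raw IP signal was only 1.47 and 1.39 times that of negative controls on the PRDM2 arrays. On the H3K9me2 array it was 6.44 times. The part of this low signal in the difference between the antibodies was not tested.
The ratio of IP over input, which holds the input that chose the chromosome, was lower there. The median ratio of chromosome 15 relative to like GC content was -0.17 and -0.20 with PRDM2, a mean of -0.18 ± 0.02 (SD, n = 2 arrays), and -0.54 with H3K9me2. The other autosomes spanned -0.04 to 0.05 and -0.04 to 0.03 with PRDM2 and -0.13 to 0.10 with H3K9me2, and chromosome X was at 0.26, 0.32 and 0.70. The PRDM2 value depended on how probes were summed: the mean over probes in place of the median gave 0.04. With normexp background correction of the raw signals, input excess was 0.37, PRDM2 IP excess 0.096 and H3K9me2 IP excess 0.026. The PRDM2 ratio was then -0.39 and the H3K9me2 ratio -0.080. With probes of IP and input well above background on all arrays H3K9me2 IP excess was -0.18 and PRDM2 IP excess 0.14. A lone H3K9me2 array leaves the difference between the antibodies without a replicate check.

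**Figure D2:**
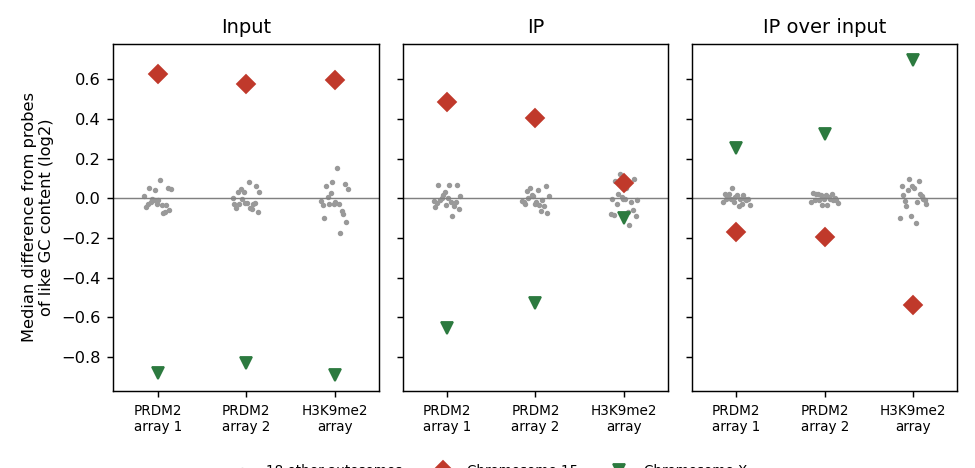
Median difference from probes of like GC content (log2, vertical axis) for input, IP and IP over input on each array (horizontal axis); grey points are the 18 other autosomes, diamonds chromosome 15 and triangles chromosome X. Chromosome 15 is high in input on all arrays, high in IP on the PRDM2 arrays, at 0.08 in IP on the H3K9me2 array, and low in the ratio.

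Along the chromosome the input was raised in every window with probes, except from 20 to 25 Mb on the H3K9me2 array. No probes lay from 15 to 20 Mb or from 45 to 50 Mb. Windows of 5 Mb, counted in coordinates of the array design, held 20 or more probes in 19 cases, and in 18 of these input excess was above 0 on all 3 arrays. The mean over arrays ran from 0.24 to 0.71, with a median of 0.57. Of 473 windows on the other autosomes, whose median was -0.04, 10 reached the lowest chromosome 15 window and 0 reached the chromosome 15 median. The 3 highest windows on chromosome 15 followed on each other or lay at the end. The window from 75 to 80 Mb, with 1765 probes, had 0.74, 0.63 and 0.75, and that from 80 to 85 Mb, with 1085 probes, had 0.73, 0.64 and 0.71. The window from 100 to 105 Mb, with 1365 probes, had 0.65, 0.62 and 0.66.
The 3 lowest windows held few probes or stood out on the H3K9me2 array. From 20 to 25 Mb, where 38 probes lie, input excess was 0.38, 0.44 and -0.12. From 40 to 45 Mb it was 0.43, 0.43 and 0.10 over 298 probes, and from 0 to 5 Mb it was 0.46, 0.39 and 0.27 over 126 probes. In each of these windows the H3K9me2 array was the lowest and the PRDM2 arrays stayed above 0.38, and the median GC content of their probes was at most 39.1%. The 2 sides of the chromosome differed most, with at least 500 probes on each, at 54.8 Mb, where input excess was 0.53, 0.50 and 0.36 over the 2100 probes before it and 0.65, 0.60 and 0.66 over the 7409 after it. Median GC content of the probes also differed, at 39.7% and 44.2%, and its part was not tested. PRDM2 IP was above 0 on both arrays in all 19 windows, with means from 0.21 to 0.75. H3K9me2 IP was above 0 in 10 of the 19, and ran from -0.51 to 0.30. The PRDM2 ratio was below 0 on both arrays in 18 windows and the H3K9me2 ratio in 18, the exception each time being the window from 20 to 25 Mb.

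**Figure D3:**
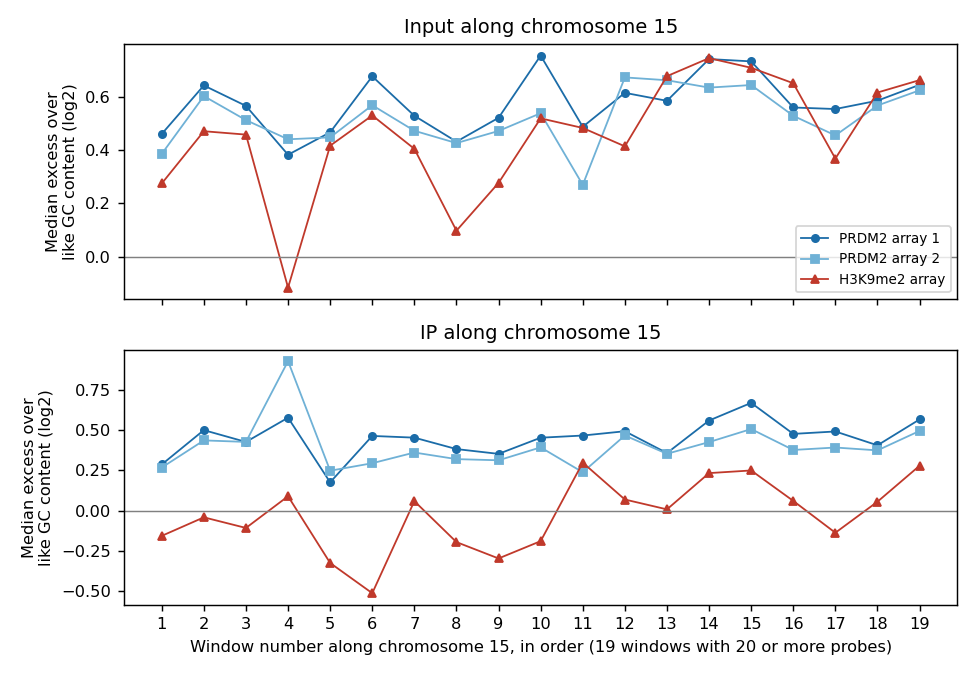
Median input excess (upper panel) and IP excess (lower panel) over like GC content (log2, vertical axes) in 19 windows of 5 Mb, numbered in order along chromosome 15 (horizontal axis), 1 line per array. Stretches without probes are left out of the numbering. Input is above 0 except on the H3K9me2 array in window 4, and PRDM2 IP is above 0 throughout while H3K9me2 IP scatters from -0.51 to 0.30.

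GC content moved with the size of the excess. In probes of 30 to 35% GC, input excess was 0.78, 0.72 and 0.97, and in probes of 60 to 65% GC it was 0.31, 0.25 and 0.28, over 438 and 492 probes. The order was not kept in the richest classes, where 126 probes of 70 to 75% GC gave a mean of 0.10 and 84 probes of 75 to 80% gave 0.95. PRDM2 IP excess ran in the same direction, from a mean of 0.63 at 30 to 35% GC through 0.44 at 40 to 45% to 0.09 at 50 to 55%. Above that its course was uneven, with 0.20 at 55 to 60%, 0.041 at 60 to 65% and 0.32 at 65 to 70%. It was 0.13 at 70 to 75% and 0.68 at 75 to 80%. The H3K9me2 ratio had the steepest course, with -1.07 at 30 to 35% GC, -0.62 at 40 to 45% and -0.17 at 60 to 65%. Signal strength moved with it, for like-GC probes of the other autosomes had a median input on the H3K9me2 array of 113 at 30 to 35% GC and 1717 at 60 to 65%, and a median IP of 36.7 and 3585. In the first of these classes 39.95% of the chromosome 15 probes had an IP well above background on that array, and in the second 100%. The part of dim signal in these courses was not tested.

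**Figure D4:**
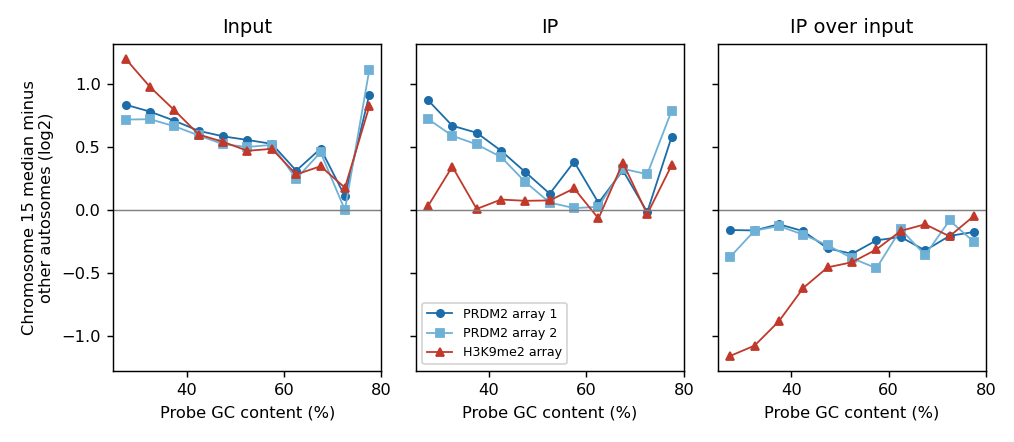
Chromosome 15 median minus the median of the other autosomes (log2, vertical axis) in probe classes of 5 points of GC content (horizontal axis) for input, IP and their ratio, 1 line per array. The H3K9me2 ratio runs from -1.15 in the poorest class to -0.05 in the richest, and the PRDM2 ratios stay below 0 in every class.

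Taking promoters as the unit, 514 of 617 on chromosome 15 (83.3%) had an input excess above 0 on all 3 arrays, beside 37.3% of the 14998 promoters on the other autosomes. Only 15 (2.43%) were below 0 on all 3, beside 36.0%. The median promoter had 0.56, with quartiles of 0.32 and 0.80 and an SD over promoters of 0.38. The values followed each other between arrays, with r of 0.84 between the PRDM2 inputs and of 0.73 and 0.74 between each and the H3K9me2 input, over 617 promoters that share their probes and GC content. Over promoters of the other autosomes these r were 0.89, 0.82 and 0.80. In promoters under 40% mean GC, chromosome 15 had a median of 0.39 over 66 promoters and the other autosomes -0.39 over 3174, and at 45 to 50% GC the medians were 0.62 and 0.10.

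**Figure D5:**
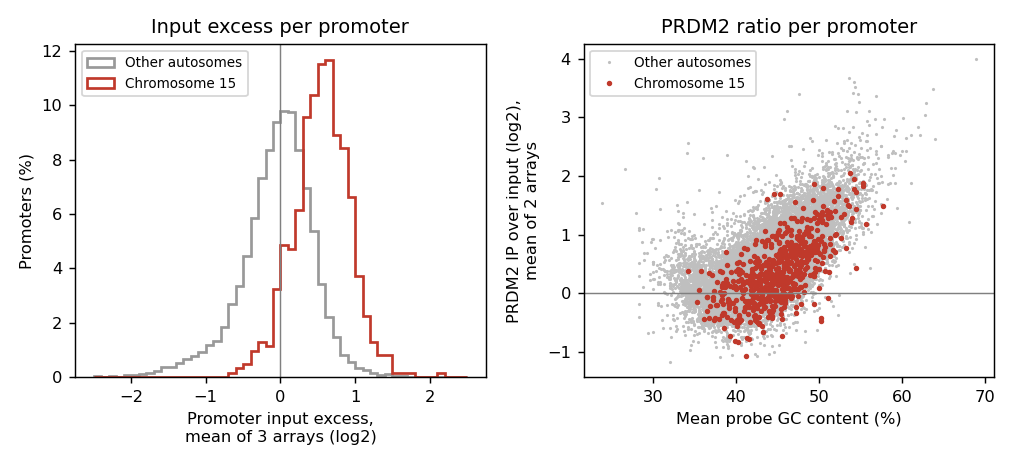
Left, share of promoters (%, vertical axis) by input excess, mean of 3 arrays (log2, horizontal axis); right, PRDM2 IP over input (log2, mean of 2 arrays) against mean probe GC content (%), 1 point per promoter. The chromosome 15 distribution has its median at 0.56 against 0.00 for the other autosomes, and on both the PRDM2 ratio climbs with GC content.

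Several of the promoters highest in input rest on few probes, and Ly6c and Ly6i among them belong to 1 family. Sdc2, a cell-surface heparan sulphate proteoglycan gene (chr15:32865274-32866656 in the coordinates of the array design, for which the sources used here give no genome build), had 2.07, 2.06 and 2.21 over 3 probes. Ly6c (now Ly6c1), for a surface antigen of myeloid cells (chr15:74874597-74875492), had 1.75, 1.83 and 1.81, also over 3 probes. Both lay above the chromosome's upper quartile of 0.80 on every array. Krt78 (chr15:101780937-101783641) had 1.58, 1.71 and 1.69 over 18 probes, the most of these 3. Aaas had 1.52, 1.51 and 1.52 over 13 probes, and Tarbp2, for a partner of Dicer, had 1.64, 1.33 and 1.47 over 7. Olfr285, an odorant receptor gene, had 1.47, 1.58 and 1.43, and Ly6i had 1.101, 1.65 and 1.71, each over 5 probes. Ly6, keratin and odorant receptor genes have close copies, to which their probes may also bind, and their values are uncertain to that extent. Myg1, Il2rb (the interleukin 2 receptor beta chain) and Hnrpa1 (now Hnrnpa1, an RNA-binding protein) completed the 10, with means of 1.38, 1.36 and 1.36.
At the other end, Slc11a2, an iron transporter gene, had -0.81, -0.63 and -0.53 over 4 probes. Krt83, a hair keratin gene, had -0.42, -0.47 and -0.58 over 5 probes, and Gtpbp1, for a GTP-binding protein, had -0.27, -0.53 and -0.46 over 6. These 3 lay below the chromosome's lower quartile of 0.32 on every array. Zcrb1, for a protein of the minor spliceosome, had -0.25, -0.31 and -1.04, and Npal2 (now Nipal2) had -0.33, -0.10 and -0.79, lowest on the H3K9me2 array in both cases. With probes of input well above background alone, Slc11a2 came to 0.07.

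For PRDM2 the log2 ratio of each promoter was set against 0 with limma, over all 16164 promoters and at a Benjamini-Hochberg adjusted p under 0.05. On chromosome 15, 235 of 617 promoters (38.1%) were called above 0 and 11 (1.78%) below 0, and the background over all chromosomes was 46.9% and 1.08%. Since the input that chose the chromosome is in this ratio, nothing is read from these shares. The calls and p-values of single promoters below hold the same input and are given as a description. The median PRDM2 ratio was 0.36 on chromosome 15 and 0.50 over all promoters, and the H3K9me2 ratio was -0.70 and -0.23. The split of calls depended on centring and normalization: centring on the median promoter gave 65 above and 117 below 0 (17.2% and 12.99% over all promoters), loess gave 15 and 273 (20.3% and 7.37%), removing the GC trend gave 37 and 24 (17.95% and 1.503%), and normexp gave 0 and 0 (4 and 136 at an unadjusted p under 0.05). With each chromosome centred on its own median promoter, 14.6% and 11.7% of the chromosome 15 promoters were called above and below 0, beside 16.0% and 11.6% over all chromosomes. GC content moved with the ratio: r between the PRDM2 ratio and mean GC content was 0.66 over the 617 promoters and 0.66 over the other autosomes, and PRDM2 calls above 0 ran from 1 of 66 promoters under 40% GC to 54 of 63 at 50% GC or more, beside 10.6% and 96.8% of the promoters of the other autosomes in these classes. Between the PRDM2 arrays r was 0.75, and between PRDM2 and H3K9me2 it was 0.70, over promoters that share probes and, for PRDM2 arrays, an antibody. Over the other autosomes these r were 0.72 and 0.51. Between the H3K9me2 ratio and mean GC content r was 0.45 on chromosome 15 and 0.08 on the other autosomes.

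The promoters with the highest PRDM2 ratio among those called had a mean GC content above the chromosome median of 45.2%, and most of these calls were lost with the GC trend removed. Pim3 (chr15:88687440-88691451 in array coordinates) had 2.81 and 1.30 on the PRDM2 arrays, a mean of 2.05 with SE 0.30 and an adjusted p from limma of 3.7e-04, and 0.34 with H3K9me2. Klf10, a transcription factor gene induced by TGF-beta, had 2.22 and 1.67, and Mafa, a factor of pancreatic beta cells, had 2.21 and 1.52. Scrt1, a neuronal repressor gene, had 1.84 and 1.73, Ppp1r16a, for a phosphatase subunit, 2.07 and 1.51, and Celsr1, a planar polarity cadherin gene, 2.14 and 1.44. Wnt7b, for a secreted signal, had 1.89 and 1.56, and Slc11a2, the promoter of the lowest input above, 1.72 and 1.95. At all 8 the lower of the 2 arrays still exceeded the chromosome median of 0.36, and mean GC content ran from 49.4% at Mafa to 55.3% at Slc11a2. With the GC trend removed the means were 0.59 at Pim3, 0.37 at Klf10, 0.37 at Scrt1, 0.44 at Celsr1, 0.30 at Wnt7b and 0.031 at Slc11a2, none of which passed, while Mafa (1.09) and Ppp1r16a (0.82) still passed.
Of the 11 called below 0, the 4 lowest with known names were Ly6c, Hrsp12, Nsmce2 and Commd5. Ly6c had -1.13 and -0.99 (mean -1.06, SE 0.20, adjusted p from limma 1.4e-03) and -4.04 with H3K9me2, the lowest H3K9me2 ratio on the chromosome. Its IP excess was 0.91 and 1.18 with PRDM2 and -1.58 with H3K9me2, so that the PRDM2 ratio was low while IP itself was above like GC content. Commd5 had -0.86 and -0.78, Hrsp12 (now Rida, an imine deaminase gene) -0.72 and -0.91, and Nsmce2, a SUMO ligase gene of the SMC5/6 complex, -0.62 and -0.95. PRDM2 IP excess was 0.24 and 0.20 at Commd5, -0.25 and -0.51 at Hrsp12, and 0.43 and -0.12 at Nsmce2. Input excess was above 0 on both PRDM2 arrays at these 4, and on all 3 arrays at 83.3% of the chromosome's promoters. At Hrsp12 it was -1.65 on the H3K9me2 array, with a mean of -0.34 over the 3 arrays.
With H3K9me2 the highest ratios among genes with known names were 1.02 at Sdc2 and 0.94 at Eny2, of the SAGA and TREX-2 complexes. Mafa followed at 0.90, Ppp1r16a at 0.82 and Scrt1 at 0.78. All of them were also called above 0 for PRDM2, beside 46.9% over all promoters. Their mean GC content was 44.3% at Eny2 and from 49.4% to 54.2% at the others. On the other autosomes 32.7% were called above 0 at 40 to 45% GC, 74.8% at 45 to 50% and 96.8% at 50% or more. Nothing is read from this overlap. At Eny2 input excess was 1.16 and 0.98 on the PRDM2 arrays but -0.95 on the H3K9me2 array. After Ly6c the lowest were Mlc1, a membrane protein gene of astrocytes, at -2.64 and Ranbp3l, for a Ran-binding protein, at -2.58. These come from 1 array and have no replicate check. Loess normalization turned the H3K9me2 ratio negative at Sdc2 and Scrt1. It also turned the PRDM2 mean negative at 11 promoters named above or below as called above 0: Scrt1, Wnt7b, Wnt1, Atf4, Nr4a1, Ndrg1, Krt8, Krt18, Krt71, Cbx7 and Prph. With the GC trend removed 16 of the 35 named PRDM2 means lost their call and 1, Wnt1, turned its sign. Not all 35 had a call to lose: Cdh12, Cyp2d26, Fbxo32, Hoxc10, Krt5, Mapk12, Mb, Myc and Pfkm had not passed. Among the 35, of those called above 0 only Atf4, Hoxc5, Krt71, Mafa and Ppp1r16a kept their call. Beside those above, the ones that lost it were Hoxc8, Krt8, Krt18, Ndrg1, Nr4a1, Prph and Ywhaz, with Smarcd1, Cbx7 and Ep300 given below.

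The gene groups below lie on the chromosome chosen for raised input, so their input counts stand beside the 83.3% of all its promoters and are no result about a group. Their PRDM2 counts stand beside the 46.9% called above 0 and 1.08% below over all promoters, and the 38.1% and 1.78% on the chromosome. These shares are not matched for GC content, with which the calls move, so nothing is read from the counts. At 40 to 45% GC, 13.8% of chromosome 15 promoters and 32.7% of those on the other autosomes were called above 0. At 45 to 50% GC the shares were 56.4% and 74.8%. Of 22 promoters of muscle and growth control genes, 21 had an input excess above 0 on all arrays, with a median of 0.64 (chromosome median 0.56). Fbxo32, an atrophy ubiquitin ligase gene, had 0.87, 0.65 and 0.75, and Pfkm had 0.94, 0.83 and 1.01. Mb had 0.73, 1.04 and 1.01, and Mapk12, the p38 gamma kinase gene of muscle, had 0.46, 0.24 and 0.35. In the PRDM2 test 9 of the 22 were called above 0 and 0 below, by limma, near the background of 46.9%, with Atf4, the stress response factor, the highest at 1.87 and 1.25. Nr4a1 was called at 1.15 and 0.86 (adjusted p from limma 2.2e-03), and values of Fbxo32 (0.32 and 0.36), Mb (0.28 and -0.40), Pfkm (-0.46 and -0.53) and Mapk12 (0.76 and 0.29) did not pass. H3K9me2 ratios were -1.50 at Fbxo32, -0.97 at Mb, -1.72 at Pfkm and 0.11 at Mapk12.
Around Myc, all 11 promoters had raised input on all arrays, with means from 0.25 to 1.03. Myc itself, the growth-promoting transcription factor gene, had 0.76, 0.50 and 0.32, and PRDM2 ratios of 0.23 and 0.34 that did not pass. Of the 11, 5 were called above 0 (background 46.9%), among them Ndrg1, a stress-response gene, at 0.89 and 0.68, and 1 below 0, Nsmce2.
In the Hoxc cluster, which encodes homeobox factors, 7 of 8 promoters had raised input on all arrays and the median was 0.39, under the chromosome's 0.56. Hoxc10 had 1.02, 0.80 and 1.03, but Hoxc8, in the same cluster, only 0.14, 0.13 and 0.24. For PRDM2, 3 of 8 were called above 0 (38.1% on the chromosome, 46.9% over all promoters), with Hoxc5 at 1.35 and 1.23 and Hoxc8 at 0.74 and 0.49, while Hoxc10 had -0.05 and 0.64.
Of 20 keratin promoters 19 had raised input on all arrays, with Krt83 as the exception, and 4 were called above 0 for PRDM2 (38.1% on the chromosome, 46.9% over all promoters). Krt8 and Krt18, the pair of simple epithelia, were both called, at 1.00 and 0.63 and at 0.71 and 0.63, with H3K9me2 ratios of 0.07 and -0.97. Krt71 had 1.21 and 0.54, and Krt5, of basal epidermis, had 0.28 and -0.32. Input excess was 0.61, 0.63 and 0.73 at Krt8, 0.19, 0.30 and 0.33 at Krt18 and 0.18, 0.42 and 0.42 at Krt5.
Of 12 promoters of the Ly6 family 10 had raised input on all arrays, with a median of 0.72, and 1, Psca, was called above 0 for PRDM2 at 0.52 and 0.62 and 1, Ly6c, below. Of the apolipoprotein L list 0 genes had a promoter of that name here.

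The 7 promoters of the Wnt pathway all had raised input on all arrays, with a median of 0.53, and 4 were called above 0 for PRDM2, beside 46.9% over all promoters and 38.1% on the chromosome, which are the background for each count here. Wnt1, for a signal of neural and somite patterning, had input values of 0.55, 0.53 and 0.71 and PRDM2 ratios of 0.31 and 1.102 (adjusted p from limma 0.026). Among chromatin and cohesin genes 8 of 11 had raised input on all arrays (83.3% on the chromosome) and 6 were called above 0 for PRDM2 (background 46.9%). Smarcd1, for a subunit of the SWI/SNF complexes, had PRDM2 ratios of 1.23 and 1.57, and Cbx7, for a Polycomb protein that binds methylated H3, had 0.91 and 0.53. Ep300, the acetyltransferase p300 gene, had 0.80 and 0.85 for PRDM2 with an input of 0.02, -0.32 and -0.49, one of the few members without raised input. With the GC trend removed the PRDM2 means of Smarcd1, Cbx7 and Ep300 were 0.26, 0.022 and 0.13 and did not pass. Among 13 promoters of tubulin and cytoskeleton genes all had raised input on all arrays (median 0.69) and 8 were called above 0 (background 46.9%), with Prph, the peripherin gene, at 1.47 and 1.17. Median GC content was 47.2% in this group and 47.1% in the chromatin and cohesin group. At 45 to 50% GC, 56.4% of chromosome 15 promoters and 74.8% of those on the other autosomes were called above 0.
Of 18 transcription factor promoters 16 had raised input and 7 were called above 0 for PRDM2 (background 46.9%), Scrt1 the highest. Of 14 translation promoters 9 had raised input on all arrays, and 4 were called above 0 (background 46.9%), with Ywhaz, a 14-3-3 gene kept in that list, at 1.17 and 1.51. Of 8 complement and cytochrome P450 promoters 7 had raised input (median 0.71), and 0 were called in either direction by limma; the PRDM2 value farthest from 0 was at Cyp2d26, the lowest of the list, with -0.21 and -0.77. The H3K9me2 median was below 0 in all 11 groups named, from -0.94 in complement and cytochrome P450 to -0.48 in the Wnt pathway, on both sides of the chromosome 15 median of -0.70 (-0.23 over all promoters). Cdh12 was the only cadherin of its list on the array, with a promoter input of 0.15, 0.29 and -0.54 and PRDM2 ratios of 0.27 and 0.11.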

How the data were processed

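Input and IP DNA were measured on 3 arrays of 2 colours, 2 for PRDM2 and 1 for H3K9me2. The processed intensities the authors deposited came, per the file headers, from Agilent Feature Extraction with its ChIP protocol (spatial detrending, subtraction of a negative-control background, linear dye normalization, surrogate values for dim spots), and the deposited raw intensities were mean spot and median background signals. The deposited log10 ratios were used as a check, and the authors' value table on a log2 scale as an alternative; its scale was found by comparison (r of 0.964, 0.941 and 0.972 with the log2 ratio, medians of 0.12, 0.10 and 0.28), and the sources used here give neither its normalization nor the genome build of the probe coordinates.

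Control spots and outlier spots (773, 107 and 218, of which 42, 4 and 4 on chromosome 15) were left out. The chromosome's excess was taken from log2 processed signals in GC classes of 5 points, with probes under 25% or at 80% GC or more pooled into the end classes. Ratios were red over green and centred on each array's median probe. No test was made of input, IP or ratio over the chromosome. Probes of 1 gene name were joined into promoters, split at gaps over 10000 bp, with at least 3 usable probes on every array. PRDM2 promoter ratios were tested against 0 with limma 3.58.1 (R 4.3.3), with Benjamini-Hochberg adjustment over 16164 promoters. The fit was also run on data simulated from its own variance model, which cannot show effects of centring or GC content. The spread of each promoter was drawn towards a value shared by all promoters (prior SD 0.29 with 10.3 degrees of freedom). The number of arrays limits the precision. Tables were made with pandas 2.3.3 under Python 3.11.15.

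The members, lists and rules were chosen with earlier results of these data known. Named promoters were the 10 highest and 5 lowest in input, the 8 highest and 4 lowest PRDM2 means among calls that had 1 sign on both arrays, then the 5 highest and 3 lowest H3K9me2 ratios, a fixed set (among it Myc, Fbxo32, Mb, Pfkm, Hoxc8, Krt8, Wnt1 and Nr4a1) and up to 3 members a list with the largest PRDM2 means in size, mostly cut to the first in the text. The 79 promoters of predicted or clone-named genes were passed over, and Rictor and Ly6a of the fixed set had no promoter tested under these names. Of 611 gene names, 477 were current RefSeq symbols, 113 were synonyms of 1 gene and 21 matched none; the array's names are kept in the text. Alternatives changed the GC classes, the summary over probes, the background correction, the normalization, the filter on dim probes, the centring and the arrays. The cell line could not be checked by expressed markers, since the arrays hold genomic DNA.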

Additional observations from a re-analysis of the deposited data

How the results depend on the processing

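Arrays left out one at a time gave 0.59 to 0.61 for the input excess, 0.41 to 0.48 for the PRDM2 IP excess and -0.20 to -0.17 for the PRDM2 ratio. GC classes of 2 points, probe length, 1 value per promoter and leaving out clustered gene families moved none of the 5 chromosome values by more than the SD between arrays (that of the PRDM2 pair for H3K9me2). Means over probes gave input 0.54, PRDM2 IP 0.63, PRDM2 ratio 0.039, which turned its sign, and H3K9me2 ratio -0.62. With normexp these were 0.37, 0.10, -0.39 and -0.080, and H3K9me2 IP was 0.026. Probes of input well above background gave input 0.57, H3K9me2 IP 0.014 and H3K9me2 ratio -0.49. An alternative chosen after seeing the data, IP and input both well above background, left 7262 probes and gave input 0.46, PRDM2 IP 0.14, H3K9me2 IP -0.18, which turned its sign, PRDM2 ratio -0.35 and H3K9me2 ratio -0.57. The value table gave a PRDM2 ratio of -0.22, and loess gave -0.41 and, for H3K9me2, -0.68. The causes were not tested.

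PRDM2 calls above and below 0 on chromosome 15 were 37 and 24 with the GC trend removed (17.95% and 1.503% over all promoters), 15 and 273 with loess (20.3% and 7.37%), 16 and 1 with medians over probes (5.69% and 0.087%), 65 and 117 centred on the median promoter (17.2% and 12.99%), and 90 and 72 with each chromosome centred (16.0% and 11.6%). With normexp limma called 0 and 0, with 4 and 136 at an unadjusted p under 0.05. A variance trend gave 245 and 33 (49.05% and 2.63%). The split of calls thus turned on centring and normalization. Without either PRDM2 array no residual degrees of freedom are left, so the counts have no such value. No paired analysis was possible because the H3K9me2 group has 1 array.

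Among called promoters the PRDM2 mean turned negative at Wnt1 (-0.11) with the GC trend removed; with normexp at Cbx7 (-0.037), Krt18 (-0.055), Krt71 (-0.19), Krt8 (-0.085), Ndrg1 (-0.28), Nr4a1 (-0.048) and Wnt1 (-0.39); with loess at Atf4 (-0.18), Cbx7 (-0.46), Krt18 (-0.043), Krt71 (-0.39), Krt8 (-0.48), Ndrg1 (-0.80), Nr4a1 (-0.13), Prph (-0.15), Scrt1 (-0.23), Wnt1 (-0.52) and Wnt7b (-0.070); and with medians over probes at Cbx7 (-0.051) and Ep300 (-0.047). H3K9me2 ratios turned to -0.37 at Scrt1 and -0.49 at Sdc2 with loess, and the input excess of Slc11a2 to 0.070 with probes of input well above background. The deposited value table and the filter on input on both PRDM2 arrays turned no named PRDM2 call in sign; the filter over all 3 arrays was not applied to these calls.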
